A study of Homo sapiens with 9 samples.

Results

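Interleukin-1 (IL-1) genes were followed in MDA-MB-231 cells, an established human basal-like breast cancer line, after knockout of FBXL12. The set held 10 genes: the ligands IL1B, IL1A, IL18 and IL33, the antagonist IL1RN, the receptor chains IL1R1 and IL1RAP, the adaptor MYD88, the kinase IRAK1 and the processing protease CASP1. They were 10 of the 61155 gene symbols in the count tables and were chosen by family and from measured values, since IL1B and IL1A were known to be higher in both knockout clones than in control cells. All 10 were listed in every library, and 8 passed the filter on low counts; IL1RN and IL33 did not.

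RNA was sequenced from FBXL12 knockout clone 1 (KO1, 3 libraries), FBXL12 knockout clone 2 (KO2, 3 libraries) and control cells carrying a scrambled guide RNA (WT, 3 libraries). FBXL12 encodes an F-box protein, the substrate-binding part of an SCF ubiquitin ligase, and the series concerns FBXL12 and replication stress. No treatment, time point or culture density is given in the labels. Each clone descends from 1 cell, so an effect of FBXL12 loss and a property of that cell cannot be told apart within a clone, and the reference was 1 control population. Whether the 3 libraries of a group are separate cultures is not stated, and p-values therefore reflect a spread that may be technical.

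IL-1 alpha and IL-1 beta bind the same receptor chain, IL1R1, which then recruits the accessory chain IL1RAP; the cytosolic domains of both chains bind MYD88, and kinases of the IRAK family carry the signal to NF-kB and MAP kinases. IL-1 beta and IL-18 are made as precursors that caspase-1 cleaves inside inflammasomes, whereas the IL-1 alpha precursor can already bind the receptor. The antagonist encoded by IL1RN occupies IL1R1 without recruiting IL1RAP. In breast tumours, IL-1 is known as an inflammatory signal between tumour cells and stroma.

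Because the IL1A and IL1B genes lie next to each other on chromosome 2 and their levels were higher in the same clones, the 250 bases before the RefSeq start site of each (GRCh38.p14, minus strand, read 5' to 3') are shown, with matches to 3 motifs in capitals. The IL1A run covers chr2:112784494-112784743 and ends just before the more upstream of 2 start sites, and the IL1B run covers chr2:112836780-112837029.
IL1B: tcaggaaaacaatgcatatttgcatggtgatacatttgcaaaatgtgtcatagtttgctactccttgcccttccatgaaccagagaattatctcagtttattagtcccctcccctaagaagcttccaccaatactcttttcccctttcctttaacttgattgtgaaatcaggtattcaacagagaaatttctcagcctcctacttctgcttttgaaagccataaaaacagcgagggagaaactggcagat
IL1A: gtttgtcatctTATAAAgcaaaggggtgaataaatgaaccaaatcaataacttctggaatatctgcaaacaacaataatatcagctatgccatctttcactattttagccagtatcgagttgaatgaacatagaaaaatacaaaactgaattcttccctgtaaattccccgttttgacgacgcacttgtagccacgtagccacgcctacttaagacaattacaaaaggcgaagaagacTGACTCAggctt
Both strands of the full windows, which also hold the 50 bases after the start, were searched for the letters GGGNNNNNCC of NF-kB sites. They were also searched for the letters TGANTCA, bound by AP-1. The motif searched last was the TATA box, with the letters TATAAA. The capitals in the IL1A run are a TATA box match that begins at base -239 and an AP-1 match that begins at base -12 relative to the start site, and another AP-1 match, at base 39, lies beyond the printed run. None of these motifs overlapped another there. No match to these letters was found in the IL1B window. RefSeq windows were held for 8 of the 10 genes, 15 windows in all, of which 7 had the NF-kB letters, 4 the AP-1 letters and 3 the TATA letters. The 2 IL1A windows overlap and both hold the AP-1 letters, so the same bases enter these counts more than once. Among 35114 windows of all genes these letters occurred in 58.7%, 7.71% and 11.5%.

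Total counts ran from 52427841 to 97243363 per library. Mitochondrial genes held 3.28% to 3.97% of counts in KO1, 4.49% to 5.39% in KO2 and 3.52% to 3.83% in WT, so every KO2 library lay above the others; its part in values that set KO2 apart was not tested. Levels are in CPM, counts relative to the TMM-scaled library total as edgeR's cpm function gives them, and errors of CPM are SD over 3 libraries. FBXL12 mRNA, the targeted transcript, was 9.64 ± 0.282 CPM in KO1, 5.94 ± 0.542 CPM in KO2 and 22.3 ± 0.999 CPM in WT, lower in both clones by edgeR (log2 fold change -1.21 and -1.91, adjusted p = 2.65e-08 and 7.29e-11). The 20 nearest tested protein-coding genes around FBXL12 were mostly lower as well. Their median log2 fold change was -0.38 in KO1 against WT and -0.53 in KO2 against WT, with 3 and 5 of the 20 above 0. Their part in the FBXL12 values was not tested. All 7 markers of a mesenchymal basal-like line were present in every group. Because IL1B is best known from monocytes, 13 monocyte and macrophage markers were summed: 2.03 to 2.73 CPM in KO1, 2.02 to 3.10 CPM in KO2 and 2.05 to 2.67 CPM in WT. Each of the 13 averaged under 1 CPM in every group, and FCGR3A, AIF1 and TYROBP had no count in any library. Of 8 keratinocyte markers, 7 averaged under 1 CPM in every group, with KRT1, IVL, DSG3 and loricrin at 0; KRT10 made up nearly all of sums of 21.0 to 28.4 CPM in KO1, 22.4 to 27.3 CPM in KO2 and 23.5 to 23.9 CPM in WT. Of 7 luminal markers, PGR was at 0 and the sums, mostly KRT19, were 171 to 209 CPM in KO1, 195 to 226 CPM in KO2 and 221 to 252 CPM in WT.

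IL1B, which encodes IL-1 beta (chr2:112829751-112836903), was the member with the greatest difference from WT in KO1. It stood at 57.1, 61.7 and 57.8 CPM in the KO1 libraries and 66.9, 70.2 and 66.0 CPM in the KO2 libraries, against 8.38, 7.03 and 8.12 CPM in the WT libraries. Every knockout library lay far above every WT library, and KO2 lay above KO1 without overlap. The ratio of mean CPM was 7.51 for KO1 over WT and 8.63 for KO2 over WT, with log2 fold changes of 2.90 ± 0.07 and 3.10 ± 0.07 (SE); no test is given, because this contrast chose the gene. Between the clones IL1B was slightly lower in KO1 than in KO2 (log2 fold change -0.20 ± 0.06, 95% interval -0.33 to -0.07, edgeR adjusted p = 0.0107). Without KO2 replicate 2 that difference no longer passed (-0.175, adjusted p = 0.052; range over 17 alternatives 0.000705 to 0.052).

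IL1A, which encodes IL-1 alpha (chr2:112773915-112784590), showed the same order of groups at lower levels. It had 11.8, 14.0 and 12.6 CPM in KO1 and 16.9, 16.9 and 19.4 CPM in KO2, against 3.96, 2.81 and 3.21 CPM in WT. The 3 groups did not overlap. On the log2 scale IL1A differed by 1.93 ± 0.12 for KO1 minus WT and 2.40 ± 0.12 for KO2 minus WT, given without a test for the same reason as IL1B. KO1 was below KO2 by a log2 fold change of -0.47 ± 0.11 (95% interval -0.70 to -0.24, edgeR adjusted p = 0.00173), a difference that kept its call under all 17 alternatives.

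**Figure D1:**
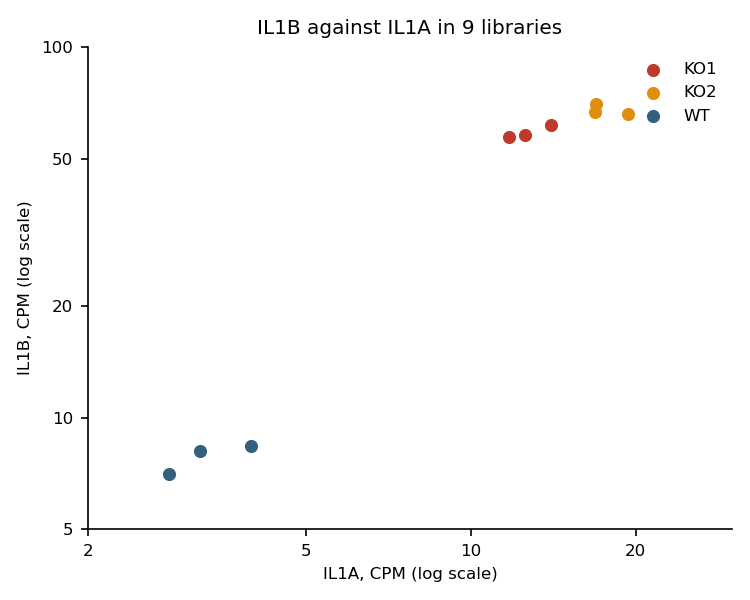
IL1B (vertical axis, CPM, log scale) against IL1A (horizontal axis, CPM, log scale), 1 point per library, coloured by group. The KO1 and KO2 points lie apart at the upper right and the 3 WT points at the lower left, with no library between 3.96 and 11.8 CPM of IL1A.

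The balance of both transcripts also differed between groups. Each IL1A count was matched by 4.85, 4.41 and 4.60 IL1B counts in the KO1 libraries, 3.96, 4.15 and 3.41 in the KO2 libraries and 2.11, 2.50 and 2.53 in the WT libraries. These ratios need no scaling between libraries, and the groups did not overlap: IL1B was further above WT than IL1A was in either clone. The 20 nearest tested protein-coding genes around IL1B, IL1A among them, had a median log2 fold change of 0.12 in KO1 minus WT and 0.04 in KO2 minus WT, where 12 and 14 of the 20 lay above 0. In bulk RNA, fewer cells that express a gene and less RNA of it per cell cannot be told apart.

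IL18, which encodes the caspase-1 substrate IL-18 (chr11:112143251-112164117), did not follow IL1A and IL1B. Its level was 32.7, 36.7 and 33.6 CPM in KO1, 27.6, 29.3 and 29.5 CPM in KO2 and 37.1, 34.5 and 35.0 CPM in WT. KO1 overlapped WT, whereas all KO2 libraries lay below both. IL18 had a log2 fold change of -0.05 ± 0.06 for KO1 minus WT and -0.30 ± 0.06 for KO2 minus WT, and 0.25 ± 0.06 for KO1 minus KO2 (95% interval 0.13 to 0.38, edgeR adjusted p = 0.00222). The 20 neighbours of IL18 had a median of 0.31 in KO1 minus KO2, and 18 of them lay above 0. Their part in the difference of IL18 was not tested.

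IL33, an alarmin ligand (chr9:6215786-6257983), had 1 count in KO1 replicate 3 and 0 in the other 8 libraries. IL1RN, the receptor antagonist (chr2:113107214-113134016), had 1 count in KO1 replicate 3, 1 count in WT replicate 1 and 0 elsewhere. A count of 0 allows up to 3 counts, which is 0.0305 to 0.0574 CPM across libraries, a limit that covers counting error only. Both genes were below the filter and were not tested, and a difference between groups was not detectable at this depth.

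IL1R1, the signalling receptor chain (chr2:102064544-102179874), was higher in KO2 than in KO1 and WT. It stood at 0.231, 0.165 and 0.126 CPM in KO1, 2.03, 2.23 and 1.77 CPM in KO2 and 0.132, 0.197 and 0.143 CPM in WT. These values rest on 11 to 18 counts per library in KO1, 106 to 147 in KO2 and 9 to 13 in WT. KO1 overlapped WT and KO2 lay above both. The filter on low counts asked for 0.152 CPM in 3 libraries, which 2 KO1, 3 KO2 and 1 WT libraries reached, and the gene also passed it with the KO2 libraries left out. Its log2 fold change was -3.53 ± 0.25 for KO1 minus KO2 (95% interval -4.05 to -3.01, edgeR adjusted p = 1.05e-08), 0.16 ± 0.33 for KO1 minus WT and 3.69 ± 0.26 for KO2 minus WT. Its 20 neighbours had medians of 0.09, -0.03 and 0.03 in these 3 comparisons.

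IL1RAP, the accessory chain that IL1R1 shares with the IL-33 and IL-36 receptors (chr3:190514051-190659750), was detected in every library. Its level was 32.1, 32.7 and 32.1 CPM in KO1, 25.8, 27.2 and 26.0 CPM in KO2 and 27.8, 28.7 and 29.7 CPM in WT. The 3 groups did not overlap, although they lay close together. The log2 fold change was 0.29 ± 0.05 for KO1 minus KO2 (95% interval 0.18 to 0.41, edgeR adjusted p = 0.000233), 0.17 ± 0.05 for KO1 minus WT and -0.12 ± 0.05 for KO2 minus WT; with a GC trend of each library removed, KO1 minus WT was 0.107. The 20 neighbours of IL1RAP had a median of 0.21 in KO1 minus WT, where 15 lay above 0. Their medians were 0.096 in KO2 minus WT and 0.05 in KO1 minus KO2. The part of these neighbours in the IL1RAP values was not tested. For each IL1R1 count there were 139, 199 and 255 IL1RAP counts in KO1, 12.7, 12.2 and 14.7 in KO2 and 210, 146 and 207 in WT, ratios of counts that are not corrected for gene length.

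MYD88, the adaptor of IL-1 and Toll-like receptors (chr3:38138478-38143022), was higher in 1 clone. It had 41.8, 37.7 and 39.6 CPM in KO1, 24.3, 19.9 and 23.1 CPM in KO2 and 25.6, 25.6 and 24.1 CPM in WT. KO1 lay above all other libraries, and KO2 and WT overlapped. The log2 fold change was 0.82 ± 0.07 for KO1 minus KO2 (95% interval 0.67 to 0.98, edgeR adjusted p = 1.18e-07), 0.66 ± 0.07 for KO1 minus WT and -0.16 ± 0.07 for KO2 minus WT.

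IRAK1, the kinase recruited through MYD88 (chrX:154010500-154019980), was 364, 285 and 322 CPM in KO1, 309, 335 and 288 CPM in KO2 and 366, 437 and 391 CPM in WT. The highest KO1 library lay just under the lowest WT library, and KO1 and KO2 overlapped. The log2 fold change was -0.30 ± 0.10 for KO1 minus WT and -0.36 ± 0.10 for KO2 minus WT. With the GC trend removed these became -0.00872 and 0.0124, so the fall of IRAK1 against WT depended on that step, and only the KO2 value changed sign. The exons of IRAK1 are 63.0% G and C, the highest of the 10 genes. Its 20 neighbours had medians of -0.16 and -0.08 in these comparisons, and 0.07 and 0.14 with the GC trend removed. The part of these neighbours in the IRAK1 values was not tested. KO1 minus KO2 was 0.06 ± 0.10 (95% interval -0.17 to 0.29, edgeR adjusted p = 0.676), which does not show that the clones were alike.

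CASP1, the protease that matures IL-1 beta and IL-18 (chr11:105025443-105035250), was higher in both clones. Its level was 9.33, 11.7 and 10.4 CPM in KO1 and 8.67, 7.91 and 9.07 CPM in KO2, against 4.35, 4.28 and 3.97 CPM in WT. All 6 knockout libraries lay above the 3 WT libraries, and KO1 lay above KO2. The log2 fold change was 1.32 ± 0.10 for KO1 minus WT and 1.02 ± 0.10 for KO2 minus WT. KO1 minus KO2 was 0.30 ± 0.10 (95% interval 0.09 to 0.50, edgeR adjusted p = 0.0196), but the adjusted p was 0.0855 without KO1 replicate 2 and 0.0866 without KO2 replicate 2 (range over 17 alternatives 0.00562 to 0.0866). In KO1 minus WT the 20 neighbours of CASP1 were raised as well, with a median of 0.46 and 19 of 20 above 0. In KO2 minus WT their median was 0.05, and in KO1 minus KO2 it was 0.51, with 16 of 20 above 0. The part of these neighbours in the CASP1 values was not tested. CARD16, a neighbour whose sequence is near-identical to the start of CASP1 and which was named after its values were seen, averaged 4.87 CPM in KO1, 3.05 CPM in KO2 and 2.66 CPM in WT, and reads of CASP1 and CARD16 may have been split by the counting.

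**Figure D2:**
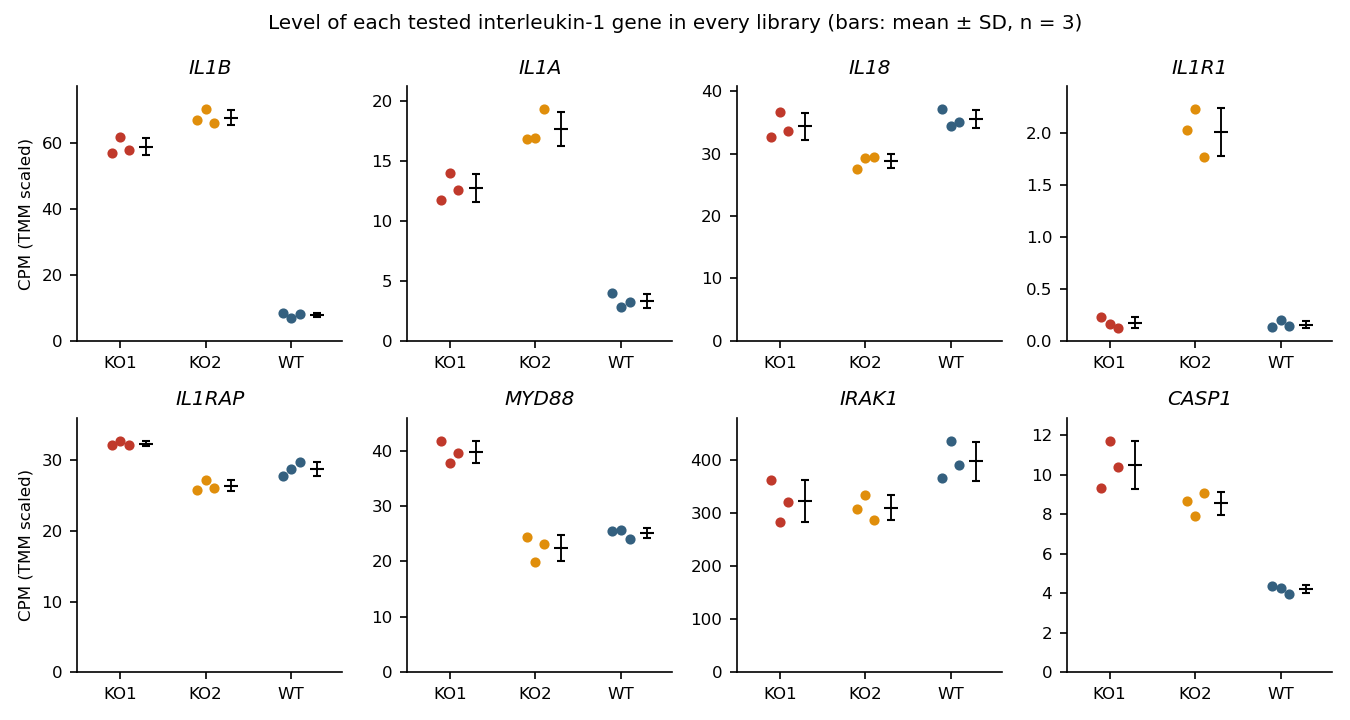
CPM (vertical axes, TMM scaled, each starting at 0) of the 8 tested genes in every library, 1 point per library, with mean ± SD (n = 3) beside each group. IL1B, IL1A and CASP1 were higher in both clones than in WT, IL1R1 in KO2 alone and MYD88 in KO1 alone.

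Of the 8 tested members, 5 were called higher and 1 lower in KO1 minus WT at an edgeR adjusted p under 0.05, beside 18.0% of all 17759 tested genes called higher, 16.8% called lower and 34.8% in either direction. In KO2 minus WT 4 were called higher and 2 lower, beside 24.7% of all tested genes higher, 24.7% lower and 49.4% in either direction. Nothing is read from these counts, since this contrast chose the genes. In KO1 minus KO2, 4 members were called higher (MYD88, CASP1, IL1RAP and IL18) and 3 lower (IL1R1, IL1A and IL1B), beside 23.9% of all tested genes called higher, 24.9% lower and 48.9% in either direction. The 5 called members other than IL1R1 and MYD88 differed between the clones by at most 0.47 in size on the log2 scale.

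**Figure D3:**
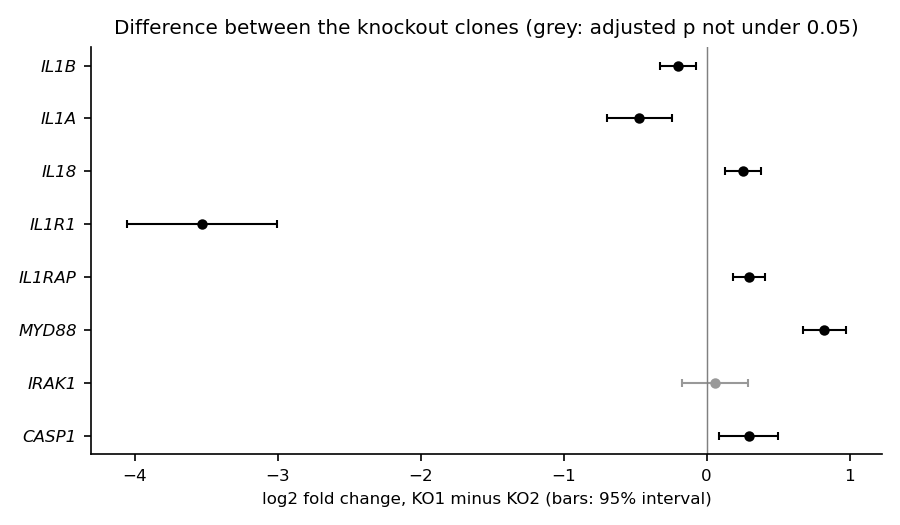
log2 fold change of KO1 minus KO2 (horizontal axis) for the 8 tested genes, with 95% intervals as bars; grey marks an adjusted p not under 0.05. IL1R1 lies at -3.53, MYD88 at 0.82, and the interval of IRAK1 spans 0.

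Levels were divided by exon length, the merged exons of all annotated transcripts of a gene. They compare genes only roughly, since which transcripts were expressed was not determined. In CPM per kb, IRAK1 was the highest in every group, with means of 80.8 in KO1, 77.7 in KO2 and 99.5 in WT. IL1B came next in the clones, at 19.0 in KO1 and 21.9 in KO2, above IL18 at 13.1 and 11.0 and MYD88 at 9.95 and 5.63. In WT the next were IL18 at 13.5 and MYD88 at 6.29, and IL1B, at 2.53 (range 2.27 to 2.71), did not differ beyond its spread from IL1RAP at 2.49 (range 2.41 to 2.57). IL1A averaged 6.02 in KO1, 8.34 in KO2 and 1.57 in WT, so it lay below MYD88 in KO1 and WT and above it in KO2. CASP1, at 2.84 in KO1 and 2.31 in KO2, overlapped IL1RAP, at 2.80 in KO1 and 2.28 in KO2, while in WT it was lower at 1.14. IL1R1 was the lowest of the tested genes throughout, at 0.0245 in KO1, 0.284 in KO2 and 0.0222 in WT.

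**Figure D4:**
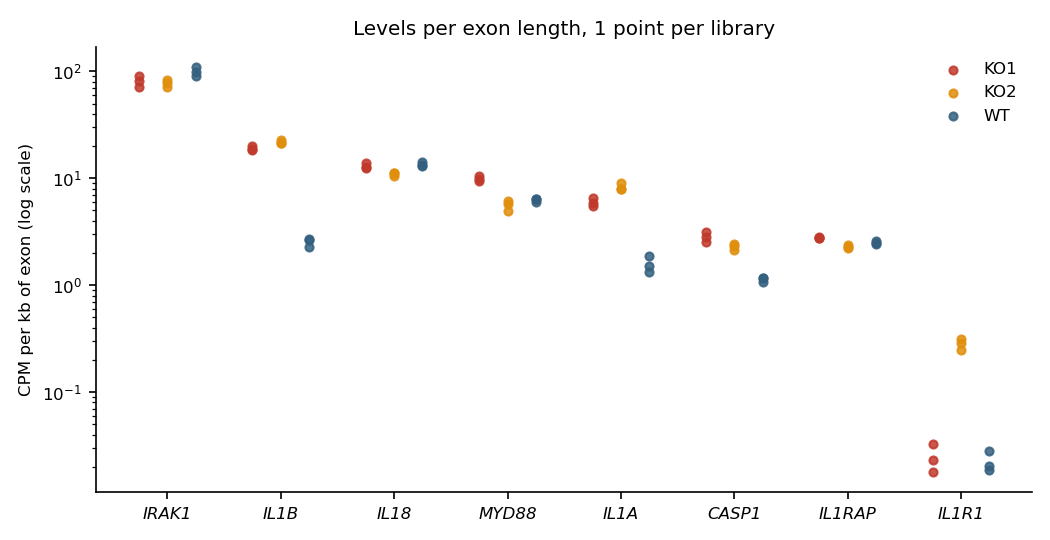
Level per exon length (vertical axis, CPM per kb, log scale) of the 8 tested genes, 1 point per library, KO1, KO2 and WT side by side. IL1B averaged 19.0 in KO1 and 21.9 in KO2, above IL18, while in WT it averaged 2.53 and lay beside IL1RAP.

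By Pearson r of log2 CPM over the 9 libraries, the gene most like IL1B among 11646 others was TGFBI, a secreted matrix protein (r = 0.9985), at 156 CPM in KO1, 163 CPM in KO2 and 74.8 CPM in WT. It was followed by C3, the central complement component, CXCL1, a neutrophil chemokine, APOL3 and APCDD1L, with r of 0.9951 to 0.9912. The genes most like IL1A were CXCL3, a chemokine (r = 0.9976), BCL2A1, an inhibitor of apoptosis (0.9975), DYNC2LI1 (0.9953), PIK3CG (0.9941) and ATP9A (0.9936). BCL2A1 averaged 8.86 CPM in KO1, 12.1 CPM in KO2 and 1.81 CPM in WT. These r describe 9 points in 3 separate groups and so mostly the order of the group means.

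Of 90 further genes of the pathway, in 5 lists by role, 72 were tested. IL37 and LCN2 passed the filter on low counts only through KO1, so they are left out of counts and medians that involve KO1, which leaves 70 genes. In KO1 minus WT 35 rose and 7 fell, 60.0% of the genes counted beside 34.8% of all tested genes, with a median log2 fold change of 0.18. In KO2 minus WT 25 rose and 20 fell, 62.5% beside 49.4%, with a median of 0.08. In KO1 minus KO2 33 were higher and 14 lower, 67.1% beside 48.9%, with a median of 0.11. The medians over all tested genes were -0.0049, -0.0077 and -0.0075. Under the filter of at least 1 CPM in 3 libraries, 5902, 7806 and 7595 of 13151 genes were called in the 3 comparisons. These are larger shares than over all tested genes, so the shares set side by side here are not matched for level. The lists were drawn up with earlier results of these data known.

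Among the other family ligands, IL1F10 had no count, and IL36A, IL36B, IL36G and IL36RN had at most 4 counts in a library. IL37, an anti-inflammatory family member, was the only one tested. It had 25, 15 and 17 counts in KO1, 5, 11 and 13 in KO2 and 7, 1 and 5 in WT. KO1 lay above KO2 in counts but overlapped it in CPM, and WT lay below both in CPM. Because it passed the filter on low counts only through KO1, no test of KO1 is given. In KO2 minus WT the log2 fold change was 1.42 ± 0.56 (edgeR adjusted p = 0.0471), a call lost in 10 of 16 alternatives (range of adjusted p 0.0361 to 0.15).

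Of 9 other receptors and binding proteins, 4 were tested, and IL1RL1 changed most. IL1RL1 encodes ST2, the receptor for IL-33, and lies in the same receptor cluster on chromosome 2 as IL1R1. Its level was 1.54, 1.56 and 1.62 CPM in KO1, 2.43, 1.70 and 1.80 CPM in KO2 and 7.62, 7.90 and 7.85 CPM in WT. Every knockout library lay below every WT library. It fell by 2.31 ± 0.13 in KO1 and by 1.99 ± 0.13 in KO2 on the log2 scale (edgeR adjusted p = 5.47e-09 and 6.75e-09). The clones did not differ past the threshold (-0.32 ± 0.14, adjusted p = 0.0646), although 5 of 17 alternatives called it.

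IL18BP, the secreted IL-18 decoy, fell in both clones, to 3.15 ± 0.129 CPM in KO1 and 2.57 ± 0.313 CPM in KO2, against 4.27 ± 0.171 CPM in WT (log2 fold change -0.44 and -0.74, edgeR adjusted p = 0.00652 and 8.37e-05). IL1RAPL1, a receptor-like chain known from neurons, rose in KO2 (16.9 CPM, against 10.2 CPM in WT; log2 fold change 0.72 ± 0.08, adjusted p = 1.8e-06) and was 11.2 CPM in KO1, which did not pass (adjusted p = 0.205). SIGIRR, an inhibitory receptor, averaged 8.47 CPM in KO1, 4.58 CPM in KO2 and 7.46 CPM in WT. It fell in KO2 (-0.70 ± 0.13, adjusted p = 0.000279), but with the GC trend removed the change was -0.138 and no longer called. In KO1 SIGIRR did not pass (0.19 ± 0.12, adjusted p = 0.248). It was called higher there with the GC trend removed and without KO1 replicate 2 (log2 fold change over 17 alternatives 0.0768 to 0.601). The decoy receptor IL1R2 had at most 8 counts in a library, IL18R1 at most 13, IL18RAP and IL1RAPL2 at most 2, and IL1RL2 none.

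All 25 genes of IL-1 receptor signalling were tested. In KO1 7 rose and 3 fell, with a median log2 fold change of 0.04; 40.0% were called, beside 34.8% of all tested genes. In KO2 4 rose and 9 fell, with a median of -0.09; 52.0% were called, beside 49.4% of all tested genes. Both shares lay near those of all tested genes. Several regulators moved in opposite directions in the clones. IRAK2, a kinase that sustains the signal, was 42.0, 38.4 and 40.2 CPM in KO1, 18.3, 18.1 and 17.3 CPM in KO2 and 28.3, 25.8 and 27.9 CPM in WT, so it rose in KO1 (0.56 ± 0.06, edgeR adjusted p = 3.55e-06) and fell in KO2 (-0.61 ± 0.06, adjusted p = 6.26e-07). PELI2, an E3 ligase that acts on IRAK proteins, was 4.28, 4.22 and 3.75 CPM in KO1, 0.842, 0.713 and 0.757 CPM in KO2 and 1.59, 1.86 and 2.11 CPM in WT, with log2 fold changes of 1.15 and -1.26 (adjusted p = 1.06e-05 and 8.54e-06). PELI1, its relative, moved the same ways by 0.46 and -0.22 (adjusted p = 1.7e-05 and 0.00463).

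IRAK3, the inhibitory kinase-like member of the IRAK family, rose in KO1 to 21.8 CPM, against 12.3 CPM in WT (log2 fold change 0.83 ± 0.07, edgeR adjusted p = 5.51e-07), and was 12.8 CPM in KO2. TIRAP, an adaptor of Toll-like receptors, rose in both clones (0.53 and 0.85, adjusted p = 0.00301 and 2.74e-05). SHARPIN, a subunit of the linear ubiquitin ligase complex, fell in KO2 (-1.08 ± 0.14, adjusted p = 0.000109) and was -0.27 ± 0.13 in KO1, which did not pass. Over 17 alternatives the KO2 value of SHARPIN ranged from -1.16 to -0.57 and was always called, while the KO1 value ranged from -0.414 to 0.106 and was called with no filter on low counts and without KO1 replicate 1. Without KO1 replicate 3, 6 genes of the list were called in KO1 minus WT, all of them higher. In that fit 4699 of all 17759 tested genes were called, 2478 of them higher, beside 6178 in the main fit.

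Of 24 genes of the inflammasome, precursor processing and release, 19 were tested. In KO1 8 rose and 1 fell, with a median log2 fold change of 0.14; 47.4% were called, beside 34.8% of all tested genes. In KO2 8 rose and 5 fell, with a median of 0.15; 68.4% were called, beside 49.4% of all tested genes. NLRP3, the sensor of the best known inflammasome, was 18.2, 18.8 and 19.8 CPM in KO1, 16.0, 15.6 and 16.6 CPM in KO2 and 12.0, 12.3 and 12.3 CPM in WT, and rose in both clones (0.64 ± 0.06 and 0.40 ± 0.07, edgeR adjusted p = 2.82e-06 and 0.000119). The 3 groups did not overlap. PANX1, a membrane channel that releases ATP, also rose in both (0.49 and 0.21, adjusted p = 1.02e-05 and 0.00641).

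SERPINB9, a serpin that inhibits granzyme B and caspase-1, fell in both clones. It had 3.13, 2.96 and 3.42 CPM in KO1 and 3.94, 3.55 and 3.97 CPM in KO2, against 9.02, 9.05 and 10.2 CPM in WT. Its log2 fold change was -1.57 ± 0.10 and -1.30 ± 0.10 (edgeR adjusted p = 2.46e-08 and 4.93e-08). CASP8, which can also cleave the IL-1 beta precursor, rose in KO2 to 61.7 CPM, against 32.7 CPM in WT (0.91 ± 0.05, adjusted p = 2.04e-09). In KO1 CASP8 stood at 37.0 CPM (0.18 ± 0.05, adjusted p = 0.0155), a call lost without KO1 replicate 3 or WT replicate 2.

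GSDME, a pore-forming gasdermin, rose in KO2 (0.68 ± 0.04, edgeR adjusted p = 3.97e-09) and was -0.11 ± 0.04 in KO1, which did not pass. CASP4, the sensor of intracellular lipopolysaccharide, rose in KO1 (0.47 ± 0.05, adjusted p = 1.11e-05) and was 0.02 ± 0.06 in KO2. CASP4 and CARD16 are 2 of the 5 list genes within the span of the neighbours of CASP1. Of the 16 tested genes outside that span, 6 rose in KO1, beside 18.0% of all tested genes called higher in KO1 minus WT. PYCARD, which links sensors to caspase-1, and AIM2, a DNA sensor, were named after their values were seen. PYCARD averaged 0.532 CPM in KO1, 0.943 CPM in KO2 and 0.332 CPM in WT and rose in KO2 alone by the test (1.48 ± 0.26, adjusted p = 0.000194; 0.66 ± 0.26 in KO1, adjusted p = 0.0633). AIM2 averaged 0.675 CPM in KO1, 0.836 CPM in KO2 and 0.349 CPM in WT and rose in both (0.95 ± 0.25 and 1.27 ± 0.25, adjusted p = 0.00738 and 0.00056).

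Of 26 genes known to respond to IL-1, 23 were tested. LCN2, which had 16 to 17 counts in KO1, 4 to 5 in KO2 and 1 to 3 in WT, passed the filter on low counts only through KO1 and is left out of the KO1 counts. Of the other 22, in KO1 20 rose, 1 fell and 1 did not pass, with a median log2 fold change of 0.85, beside 18.0% of all tested genes called higher. In KO2 11 rose, 3 fell and 9 did not pass, with a median of 0.18, beside 24.7% of all tested genes called higher. Many of these genes respond to other NF-kB signals as well, and MMP1 and MMP3 lie within the span of the neighbours of CASP1; outside that span 18 of 20 genes rose in KO1. Between the clones 14 of 22 were higher and 4 lower in KO1 than in KO2, beside 23.9% of all tested genes higher and 24.9% lower. In KO1 TNIP1 was the gene that fell and NFKBIZ the one that did not pass, and in KO2 CCL2, CSF2 and PTGS2 fell; these 5 and LCN2 were named after their values were seen.

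SAA1, an acute-phase protein, was 10.2, 10.0 and 9.47 CPM in KO1, 5.49, 5.30 and 4.76 CPM in KO2 and 1.47, 1.22 and 0.953 CPM in WT, with log2 fold changes of 3.00 ± 0.13 and 2.07 ± 0.13 (edgeR adjusted p = 4.04e-10 and 7.68e-09). CXCL3, a neutrophil chemokine, was 10.6, 10.9 and 10.1 CPM in KO1, 14.6, 14.5 and 16.1 CPM in KO2 and 4.04, 2.99 and 3.40 CPM in WT, the same order of groups as IL1A. It rose by 1.59 ± 0.10 in KO1 and 2.10 ± 0.10 in KO2 on the log2 scale (adjusted p = 2.75e-08 and 3.27e-10). CXCL1 rose by 1.33 ± 0.08 in KO1 and 1.42 ± 0.08 in KO2 (adjusted p = 3.76e-08 and 5.73e-09). SAA1, CXCL1 and CXCL3 each have a near relative in the genome, and how the counting treated reads common to both is not known.

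CSF3, which encodes the granulocyte colony-stimulating factor, was 2.55, 1.73 and 2.17 CPM in KO1, 12.7, 15.9 and 12.3 CPM in KO2 and 1.62, 1.28 and 1.54 CPM in WT. It rose in KO2 by 3.20 ± 0.15 (edgeR adjusted p = 2.93e-10) and in KO1 by 0.53 ± 0.16 (adjusted p = 0.0174), the second of which was lost with limma-voom and without KO1 replicate 1, KO1 replicate 3 or WT replicate 2. MMP1, an interstitial collagenase, averaged 2847 CPM in KO1, 1521 CPM in KO2 and 1101 CPM in WT and rose in both clones (1.37 ± 0.05 and 0.47 ± 0.05, adjusted p = 1.5e-10 and 3.11e-06). ICAM1, a leukocyte adhesion molecule, averaged 56.8 CPM in KO1, 30.5 CPM in KO2 and 30.1 CPM in WT; it rose in KO1 (0.91 ± 0.06, adjusted p = 6.99e-08) and did not pass in KO2 (0.02 ± 0.07, adjusted p = 0.856), where only removal of the GC trend made a call (adjusted p = 0.00768; range over 17 alternatives 0.00768 to 1). CCL2, a monocyte chemokine, moved in opposite directions, by 0.94 ± 0.15 in KO1 and -2.21 ± 0.20 in KO2 (adjusted p = 0.00016 and 2.62e-07).

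**Figure D5:**
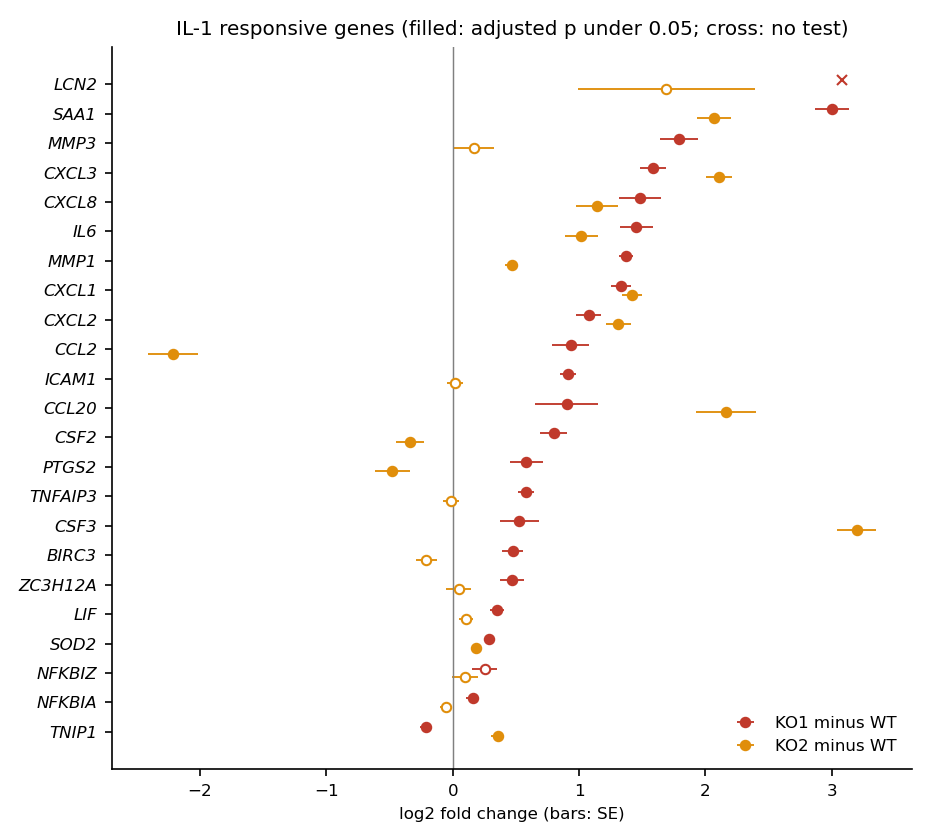
log2 fold change (horizontal axis, bars SE) of 23 tested IL-1 responsive genes in KO1 minus WT and KO2 minus WT, ordered by the KO1 value; filled points had an adjusted p under 0.05, and a cross marks LCN2 in KO1, which has no test. In KO1 20 points are filled to the right of 0, while KO2 has 11 to the right and 3 to the left.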

How the data were processed

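RNA was extracted with an RNeasy kit, had an RNA integrity number of 10 and was made into Illumina TruSeq libraries, per the labels' protocols. The authors deposited raw read counts per gene symbol, whole numbers without normalization, 1 table per library. The submitters' processing notes name Trim Galore and HISAT2 and the builds hg38, GRCm38 and mm10 without a role; the symbols are human. Versions, read counter, annotation, strand setting and multi-mapping rule are not given in the sources used, so reads of near-identical or overlapping genes could be shared. IL1R1-AS1, which overlaps 11 exonic bases of IL1R1, and a lincRNA that overlaps 535 exonic bases of IL1RAP are examples.

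The counts were tested in edgeR 4.0.16 (R 4.3.3): filterByExpr (17759 genes kept of 61155), TMM factors, and a robust quasi-likelihood fit with 1 mean per group over all 9 libraries. The fit was also run on counts simulated with 1 spread common to all genes and changes in KO1 alone, a setting simpler than these data. Genes were called at a Benjamini-Hochberg adjusted p under 0.05 over all genes tested. The biological coefficient of variation was 7.46%. The SE is the absolute log2 fold change over the root of F. Exon lengths, positions and GC content came from GENCODE release 29 (GRCh38); plots were drawn with matplotlib 3.10.9. Alternatives were upper quartile scaling, DESeq2 1.42.0, limma-voom (limma 3.58.1), 2 other filters, the replicate block, fits of only the groups compared, removal of a GC trend and leaving out each library.

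The members and lists were chosen with earlier results of these data known. The genes named were all members, every other ligand and receptor, up to 6 genes per other list with the smallest p against WT, FBXL12, and the 5 genes most like IL1B and IL1A whose average log2 CPM reached 1; exceptions are marked. All 135 list genes matched a symbol, 1 by an older name. Within groups, pairs of libraries had a chi-square of 6.17 to 31.5 per degree of freedom, above sampling noise, and each counted as 1 replicate.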

Additional observations from a re-analysis of the deposited data

Results flagged for a closer look

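The knockout clones, set against the same WT libraries, differed from each other by edgeR's test in many of the genes named, so their changes from WT were not equal. Values are log2 fold changes of KO1 minus KO2, and 48.9% of all tested genes differed in this comparison. Of the members, MYD88 (0.823), CASP1 (0.295), IL1RAP (0.295) and IL18 (0.253) were higher in KO1, and IL1R1 (-3.53), IL1A (-0.472) and IL1B (-0.201) were lower.

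Of the other receptors, SIGIRR (0.886) and IL18BP (0.294) were higher in KO1 and IL1RAPL1 (-0.591) was lower. Of the signalling genes, PELI2 (2.41), IRAK2 (1.17), SHARPIN (0.811), IRAK3 (0.766) and PELI1 (0.677) were higher and TIRAP (-0.324) was lower. Of the inflammasome and release genes, CASP4 (0.452), PANX1 (0.279) and NLRP3 (0.238) were higher, while GSDME (-0.792), CASP8 (-0.737) and SERPINB9 (-0.268) were lower. Of the responsive genes, SAA1 (0.934), MMP1 (0.905) and ICAM1 (0.898) were higher and CSF3 (-2.67) and CXCL3 (-0.516) were lower. The calls of IL18BP, SERPINB9 and TIRAP were lost in 13, 10 and 6 of 17 alternatives.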

How the results depend on the processing

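Each count of calls was recomputed under 17 alternatives, and no count over the members or over all other pathway genes moved by more than 1.5 times. Members called ranged from 4 to 6 in KO1 minus WT, 5 to 7 in KO2 minus WT and 5 to 7 in KO1 minus KO2. Pathway genes called, here with IL37 and LCN2, ranged from 36 to 48, 41 to 50 and 44 to 54. Over all tested genes the calls ranged from 4629 to 6934, 7642 to 9702 and 7556 to 9986, each extreme out of 17759 genes. The lowest member counts came without KO1 replicate 3 or WT replicate 2 (4 in KO1 minus WT) and without KO2 replicate 2 (5 in KO1 minus KO2). Calls over all tested genes in these fits were 4699, 4629 and 7786, beside 6178 and 8679 in the main fit of KO1 minus WT and KO1 minus KO2. Removing the GC trend reversed IRAK1 in KO2 minus WT, to 0.0124, and brought KO1 minus WT to -0.00872; the cause was not tested beyond this alternative's own construction. Same-numbered libraries did not deviate together (r of -0.0999 to 0.0499, none over 0.1), so the numbers were not taken as pairing. With the replicate block, 5, 6 and 7 members and 42, 44 and 47 pathway genes were called in the 3 comparisons. Of all 17759 tested genes, 5544, 8302 and 8240 were called with that block. IL1RN, IL33 and most other ligands lay at or under the 3-count limit in nearly all libraries, so differences in them were not detectable at this depth.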
